A study of Mus musculus with 8 samples.

Results

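Heat shock and chaperone proteins keep other proteins folded. The 10 genes described here are Hspa1a, Hspa1b, Hsph1, Dnajb1, Dnaja1, Hsp90aa1, Hspa8, Hspa5, Hspd1 and Hspe1, chosen by name, and all 10 are among the 13341 genes of the deposited table. They were measured by RNA sequencing in CD44hi T cells of MRL/lpr mice at 14 weeks of age, a lupus model in which all groups share the lpr mutation of Fas and the kidneys become inflamed. The 4 groups, with 2 libraries each, were kidney CD4+ T cells, kidney CD8+ T cells, spleen CD4+ T cells and spleen CD8+ T cells. CD44hi marks antigen-experienced cells. No strain without the lpr mutation was analysed here, so each comparison is between organs or cell types within the same disease model. Nothing in the labels says whether the 2 libraries of a group came from separate mice or whether mice were pooled, so the p-values measure the spread between these libraries, which may be technical.

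HSP70 proteins bind unfolded stretches of other proteins and use ATP to release them. J-domain proteins such as those of Dnajb1 and Dnaja1 bring clients to HSP70 and drive its ATP use, Hsph1 encodes an HSP110 protein that exchanges its nucleotide, and HSP90 takes clients on towards their mature form. In the cytosol, heat and other protein damage free the transcription factor HSF1, which switches on Hspa1a, Hspa1b, Dnajb1 and Hsph1 strongly, while Hspa8 is the abundant HSP70 of unstressed cells. Hspa5 encodes BiP, the HSP70 of the endoplasmic reticulum and a target of the unfolded protein response. Hspd1 and Hspe1 encode the mitochondrial chaperonin HSP60 and its partner HSP10. The cytosolic inducible genes are also known to respond when tissue is taken apart for cell sorting. The labels do not describe how the organs were dissociated, and the part of that step in the values below was not tested.

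The control regions of 4 of the genes are printed because they hold letters known as binding motifs of the heat shock and the endoplasmic reticulum stress response. The stretches were read from RefSeq promoter windows of the mouse build GRCm38.p6, which reach from 250 bases before to 50 bases after a transcription start, and 8 of the 10 genes had such a window. Bases 150 to 41 before the start are shown for Hspa1a (chr17:34972197-34972306, minus strand), Hspa1b (chr17:34959279-34959388, minus strand) and Hspa5 (chr2:34771940-34772049, plus strand). For Hspe1 a stretch of 30 bases is shown (chr1:55088050-55088079, plus strand), bases 98 to 69 before its start. Capitals mark a heat shock element in the first 3 and an endoplasmic reticulum stress element in Hspa5.
Hspa1a: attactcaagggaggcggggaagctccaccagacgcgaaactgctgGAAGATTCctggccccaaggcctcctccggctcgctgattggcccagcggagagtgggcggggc
Hspa1b: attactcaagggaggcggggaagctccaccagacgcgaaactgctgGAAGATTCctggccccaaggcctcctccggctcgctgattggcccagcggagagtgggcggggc
Hspe1: cacggtccgTTCTAGAACCTTCCGGAAggc
Hspa5: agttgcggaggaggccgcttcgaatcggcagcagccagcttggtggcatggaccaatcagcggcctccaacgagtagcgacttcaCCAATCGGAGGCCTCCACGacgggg

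The Hspa1a and Hspa1b stretches shared 110 of 110 bases. Heat shock elements were searched as GAANNTTC or TTCNNGAA, which read the same on both strands. At least 1 of them was found for 6 of the 8 genes with a window (Hspa1a, Hspa1b, Hsph1, Dnaja1, Hspd1 and Hspe1) and in 17% of the 27025 genes of the table. The form with 3 units, GAANNTTCNNGAA or TTCNNGAANNTTC, contains the shorter motif and was found for Hsph1, Hspd1 and Hspe1 and in 0.662% of all genes. Hspd1 and Hspe1 lie head to head. The window of 1 of the 2 Hspd1 starts shares the element printed for Hspe1. The endoplasmic reticulum stress element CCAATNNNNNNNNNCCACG, searched on both strands, was found for Hspa5 alone among the 8 and in 0.137% of all genes. These matches describe letters in a window and do not show binding. No window was used for Hsp90aa1 and Hspa8.

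Reads in the listed genes, as recovered from the deposited values, ranged from 7477544 to 11169003 per library. Libraries followed their sorted markers, with Cd4 at 1365 to 2224 in CD4+ libraries and at 0 to 17.8 in CD8+ libraries. Cd8a was at 12159 to 18556 in CD8+ libraries and at 1.11 to 103 in CD4+ libraries. A level here is the deposited normalised count, of which 1 read is worth 0.554 to 1.04. The kidney CD4+ libraries were unlike each other, with a Pearson r across genes of 0.772 between their log2 levels, against 0.883 to 0.958 for the other pairs. Cd3e, which encodes part of CD3, was at 5456 in the first and 637 in the second of them. Other T cell markers went the other way, with Cd3g at 24538 and 48406 and Cd2 at 24590 and 32997. The 6 measured T cell markers summed to 90792 in the first and 112593 in the second. RNA of other cells differed between the organs. The 15 proximal tubule markers summed to 8095 to 30806 in kidney libraries and to 87.5 to 543 in spleen libraries, where 12 to 14 of them were at 0. The 9 neutrophil markers summed to 0 to 29.6 in kidney libraries and 3660 to 9429 in spleen libraries.

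Per kilobase of exon, Hspa8 had the highest level of the 10 genes in every group, with group means of 7030 in kidney CD4+ and 6171 in kidney CD8+ cells, against 5757 for spleen CD4+ and 6987 for spleen CD8+ cells. Hspa1a had the lowest in spleen, at 16.9 in CD4+ and 13.4 in CD8+ cells, and ranked 7 of 10 in both kidney groups at 416 in CD4+ and 368 in CD8+ cells. Hsph1 had the lowest level per kilobase in kidney, at 46.8 in CD4+ and 60.8 in CD8+ cells. Together the 10 genes took 0.25% to 1.17% of the recovered reads of a library.

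**Figure D1:**
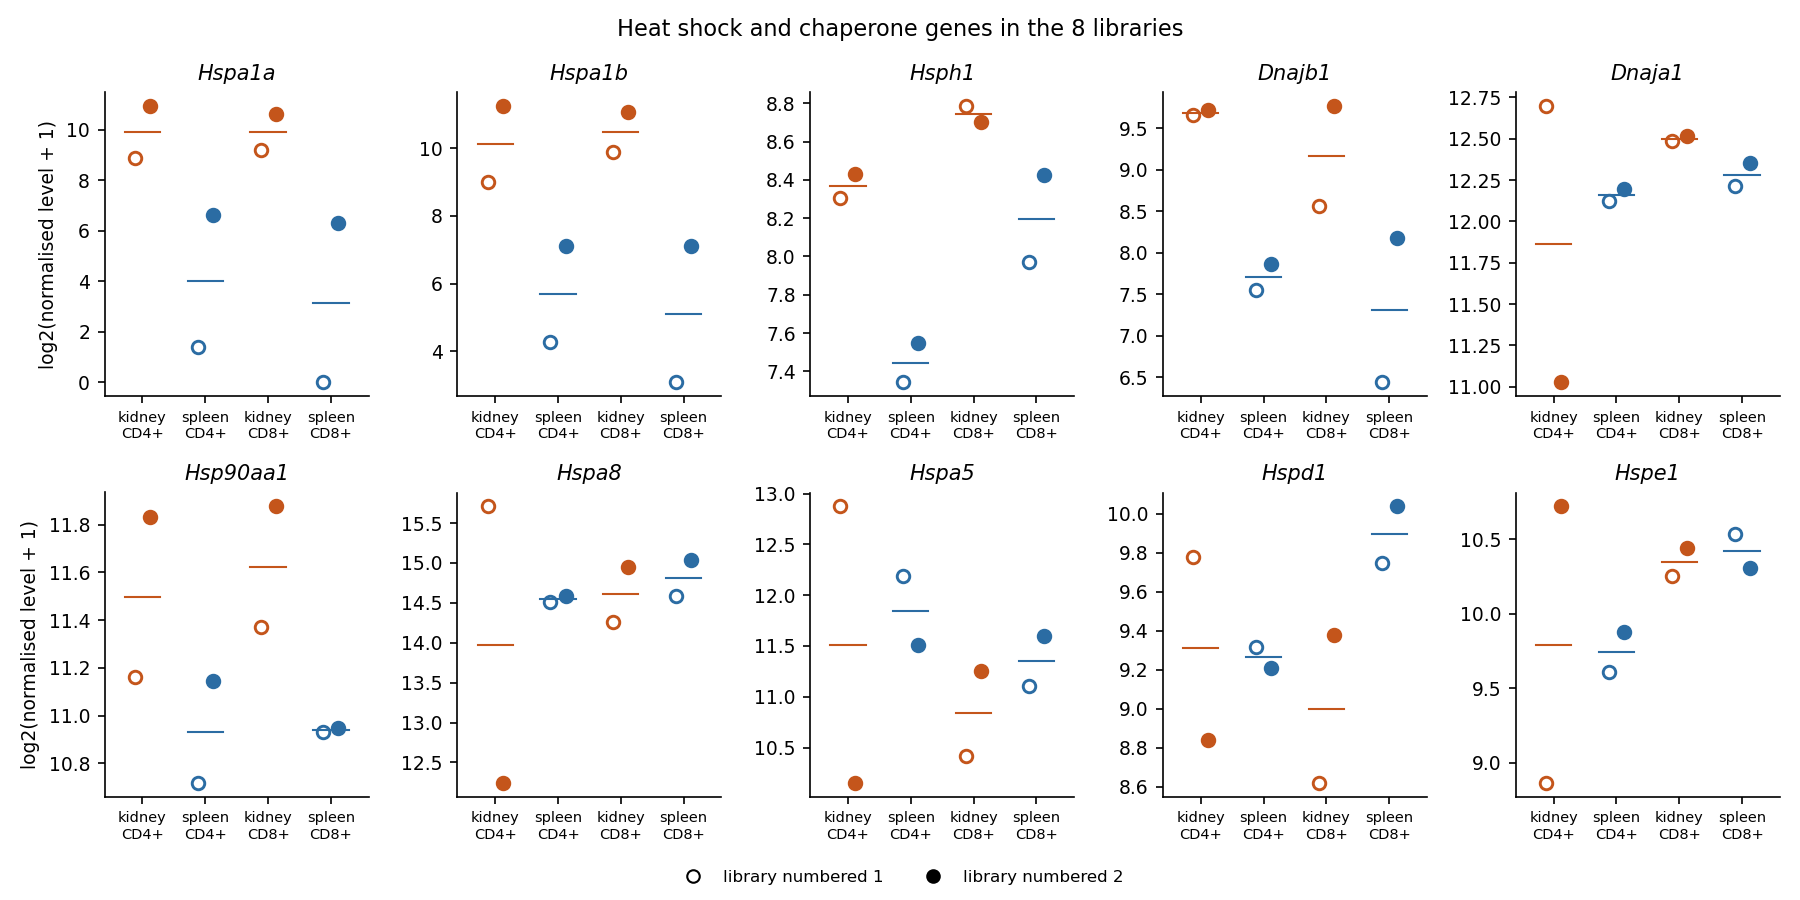
Levels of the 10 genes as log2(normalised level + 1) in each library, by group, with open circles for the library numbered 1 and filled circles for the library numbered 2 of a group; each panel has its own axis and lines mark group means. In Hspa1a, Hspa1b, Dnajb1 and Hsp90aa1 every kidney library lies above every spleen library.

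The inducible HSP70 genes differed most between the organs. Hspa1a was at 467 and 1968 in kidney CD4+ libraries, against 1.66 and 97.5 in spleen CD4+ libraries. In CD8+ cells it was at 583 and 1569 in kidney libraries, against 0 and 78.3 in spleen libraries. The lowest kidney library was above the highest spleen library, and the 2 libraries of each group lay far apart. The spleen CD8+ library at 0 had no read, which allows a level of up to 2.02 (3 reads, counting error only). Mean levels were 1147 ± 737 in the 4 kidney libraries and 44.4 ± 50.9 in the 4 spleen libraries (SD), a ratio of 25.8.

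Hspa1b, its near-identical neighbour, was at 513 and 2453 in kidney CD4+ libraries, against 18.3 and 138 in spleen CD4+ libraries. In CD8+ cells it was at 954 and 2158 in kidney libraries, against 7.41 and 138 in spleen libraries. Again no kidney library overlapped the spleen libraries. Over both cell types Hspa1b averaged 1520 ± 933 in kidney and 75.3 ± 72.3 in spleen (SD, n = 4 each), a ratio of 20.2. It rose in kidney, with a log2 fold change of 4.92 ± 0.99 SE and a limma adjusted p of 0.0321 (n = 4 libraries an organ). The call was lost in 7 of 15 alternatives, with edgeR (adjusted p = 0.0562), with library weights (0.119) and on leaving out either kidney CD8+ library, either spleen CD4+ library or spleen CD8+ library 1 (0.0681 to 0.162).

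For Hspa1a the log2 fold change over both cell types was 6.32 ± 1.50 SE (limma adjusted p = 0.0671). On log2(level + 1) the spleen libraries near 0 spread widely. With 10 added in place of 1 the log2 fold change was 4.90, and Hspa1a passed (adjusted p = 0.0166). The adjusted p ran from 0.00734 to 0.261 over 15 alternatives. The genes lie 1 after the other on chromosome 17 (Hspa1b at 35093381 to 35096183 and Hspa1a at 35106144 to 35109069, minus strand, mm9). Their coding sequences are 99.4% identical, so how reads were split between them is uncertain, since the counting is not described. Summed, the pair was at 980 and 4420 in kidney CD4+ and 1537 and 3727 in kidney CD8+ libraries, against 20.0 and 236 in spleen CD4+ and 7.41 and 216 in spleen CD8+ libraries.

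Among the partners of HSP70, Dnajb1, which encodes HSP40, was at 808 and 842 in kidney CD4+ libraries, against 187 and 232 in spleen CD4+ libraries. In CD8+ cells it was at 379 and 873 in kidney libraries, against 85.5 and 289 in spleen libraries. The organs did not overlap. The mean was 725 ± 233 in kidney and 198 ± 86.2 in spleen (SD, n = 4 each), a ratio of 3.65, with a log2 fold change of 1.92 ± 0.43 SE that just missed the threshold (limma adjusted p = 0.0554). It passed in 7 of 15 alternatives, DESeq2 among them (adjusted p = 0.000989), and not with edgeR (0.0603).

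Hsph1 was at 315 and 344 in kidney CD4+ libraries, against 161 and 186 in spleen CD4+ libraries, and at 441 and 416 in kidney CD8+ libraries, against 250 and 343 in spleen CD8+ libraries. Kidney was above spleen within each cell type, but spleen CD8+ library 2 reached the kidney CD4+ levels. The log2 fold change over both cell types was 0.73 ± 0.25 SE (limma adjusted p = 0.225). The second J-domain gene, Dnaja1, did not share the pattern of Dnajb1. It was at 6650 and 2084 in kidney CD4+ and 5740 and 5856 in kidney CD8+ libraries, against 4455 and 4697 in spleen CD4+ and 4743 and 5240 in spleen CD8+ libraries. Its log2 fold change over both cell types was -0.04 ± 0.37 SE (limma adjusted p = 0.969). Dnaja1 overlaps exons of Smu1 on the opposite strand in the mm9 annotation, and the library kit does not mark strand.

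Hsp90aa1, the inducible cytosolic HSP90, was at 2291 and 3643 in kidney CD4+ and 2649 and 3759 in kidney CD8+ libraries, against 1684 and 2262 in spleen CD4+ and 1953 and 1975 in spleen CD8+ libraries. The organs did not overlap, by a narrow margin of 2291 in the lowest kidney library against 2262 in the highest spleen library. The log2 fold change was 0.62 ± 0.27 SE over both cell types (limma adjusted p = 0.344).

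The constitutive HSP70 gene Hspa8 was at 53589 and 4846 in kidney CD4+ libraries and 19566 and 31725 in kidney CD8+ libraries. In spleen it was at 23292 and 24560 in CD4+ and 24601 and 33474 in CD8+ libraries. The kidney CD4+ libraries held both the highest and the lowest level of all 8, and the sign of the fold change depended on them. Over both cell types it was -0.39 ± 0.67 SE in log2 (limma adjusted p = 0.830), but 0.48 without kidney CD4+ library 2 and -1.25 without library 1.

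Hspa5, the BiP gene, was at 7511 and 1136 in kidney CD4+ and 1365 and 2448 in kidney CD8+ libraries, against 4658 and 2918 in spleen CD4+ and 2210 and 3104 in spleen CD8+ libraries. The groups overlapped in each comparison, with a log2 fold change over both cell types of -0.43 ± 0.55 SE (limma adjusted p = 0.764). It turned to 0.25 without kidney CD4+ library 2.

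The mitochondrial pair did not move together. Hspd1 was at 392 and 664 in kidney CD8+ libraries, against 859 and 1049 in spleen CD8+ libraries, with both kidney libraries below both spleen libraries, as in 24.4% of all tested genes. None of the other genes was lower in both kidney libraries of a cell type. Its log2 fold change in CD8+ cells was -0.89 ± 0.43 SE (limma adjusted p = 0.530). In CD4+ cells Hspd1 was at 877 and 457 in kidney libraries, against 637 and 591 in spleen libraries. Hspe1 was at 465 and 1689 in kidney CD4+ and 1221 and 1392 in kidney CD8+ libraries, against 781 and 939 in spleen CD4+ and 1485 and 1265 in spleen CD8+ libraries. Its log2 fold change over both cell types was -0.01 ± 0.39 SE (limma adjusted p = 0.992). The genes overlap at their starts on opposite strands of chromosome 1 in the mm9 annotation (Hspd1 at 55134679 to 55145087, minus strand, and Hspe1 at 55144976 to 55148151, plus strand), so reads there cannot be told apart.

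**Figure D2:**
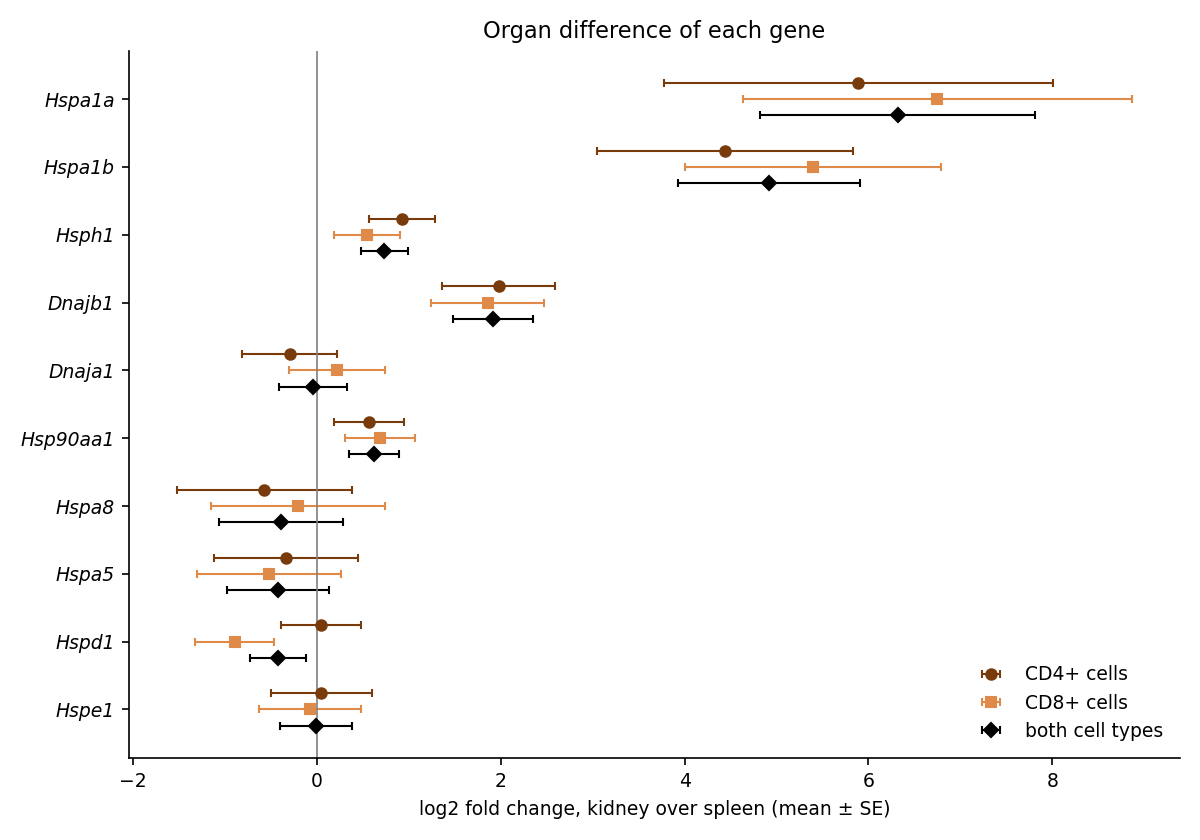
Log2 fold change of kidney over spleen with its SE for each of the 10 genes, in CD4+ cells (circles), CD8+ cells (squares) and both cell types together (diamonds), from 1 limma fit over 8 libraries. Hspa1a and Hspa1b lie between 4.44 and 6.75, Dnajb1 near 1.9, and the other genes between -0.89 and 0.92.

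By count, 1 of the 10 genes rose and 0 fell in kidney over both cell types, all 10 having passed the filter on low levels. Of the 10845 genes tested, limma called 3.37% in either direction and 2.71% as higher. Every kidney library was above every spleen library for 4 of the 10 (Hspa1a, Hspa1b, Dnajb1 and Hsp90aa1), against 5.84% of all tested genes. The near-identical Hspa1a and Hspa1b may not be separate signals in this and the other counts, since how reads were split between them is uncertain. At an unadjusted limma p below 0.05 there were 5 of the 10, against 14.2% of all. The median log2 fold change was 0.31 for the 10 genes and -0.06 for all tested genes. With edgeR 0 of the 10 were called, against 3.1% of all tested genes, and with DESeq2 2, against 7.28%. Without kidney CD4+ library 1 limma called all 10, against 25.3% of all tested genes, with Hspa8, Hspa5, Hspd1 and Dnaja1 among the falls; the lone library left in that group was assumed to vary like the others.

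Within CD4+ cells 0 of the 10 genes were called in kidney against spleen, against 0.959% of all tested genes, while 4 had an unadjusted limma p below 0.05, against 9.11% of all. Neither edgeR (0.609% of all genes) nor DESeq2 (3.25%) called any of the 10. Both kidney libraries were above both spleen libraries for 5 of the 10, against 16.3% of all tested genes. Within CD8+ cells 0 were called, against 1.55% of all tested genes, while 3 had an unadjusted p below 0.05, against 10.6% of all. Again edgeR (0.913%) and DESeq2 (4.54%) called none of the 10, and 6 of the 10 were higher in both kidney libraries, against 26.7% of all.

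The log2 fold changes in CD4+ cells were 5.89 ± 2.12 for Hspa1a, 4.44 ± 1.39 for Hspa1b, 1.98 ± 0.61 for Dnajb1 and 0.92 ± 0.36 for Hsph1 (SE). In CD8+ cells they were 6.75 ± 2.12 for Hspa1a, 5.40 ± 1.39 for Hspa1b, 1.86 ± 0.61 for Dnajb1 and 0.55 ± 0.36 for Hsph1. Both cell types gave values of the same sign for these 4 genes. The same held for Hsp90aa1, Hspa8 and Hspa5, but not for Dnaja1, Hspd1 and Hspe1. The SE comes from a spread shared by the 4 groups, the unlike kidney CD4+ pair included. In an alternative without that pair, chosen after seeing the data, Hspa1b passed in CD8+ cells (limma adjusted p = 0.0381) and Hspa1a did not (0.0907), against 6.87% of all tested genes called.

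The organ difference was compared between the cell types as that in CD8+ minus that in CD4+ cells. By limma 0 of the 10 genes and 0% of all tested genes passed, and 0 of the 10 had an unadjusted p below 0.05, against 3.34% of all. With edgeR 0% and with DESeq2 0.111% of all genes were called, none of them among the 10. The values ran from -0.94 ± 0.61 SE for Hspd1 to 0.96 ± 1.97 SE for Hspa1b. Without kidney CD4+ library 1, 2 of the 10 were called, against 6.87% of all tested genes.

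Between the cell types of kidney 0 of the 10 genes were called, against 0.203% of all tested genes, and 0 had an unadjusted limma p below 0.05, against 8.51% of all. The log2 fold changes of CD8+ over CD4+ cells ran from -0.68 to 0.64, and edgeR (0.221% of all genes) and DESeq2 (1.99%) called none of the 10. Without kidney CD4+ library 1 limma called 2 of the 10, against 10.9% of all tested genes, and without library 2 it called 3, against 12.5%. Between the cell types of spleen 0 were called, against 0.36% of all tested genes, and 0 had an unadjusted p below 0.05, against 6.43%. There the values ran from -0.86 to 0.75, and edgeR (0.415%) and DESeq2 (2.16%) called none. Both spleen CD8+ libraries were above both spleen CD4+ libraries for 5 of the 10 genes, against 19.8% of all. Hsph1 was among these 5, with a log2 fold change of 0.75 ± 0.36 SE (limma adjusted p = 0.851).

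The other chaperone and stress genes were read from 6 lists. Over both cell types limma called 2.71% of all tested genes as higher and 0.664% as lower. A count of 0 in lists of this size lies near these shares. Apart from immediate early genes, no gene of these lists passed in any limma comparison. Named genes are shown in the contrast that gave their smallest adjusted p, unless both cell types are stated. Of 24 other heat shock response genes 20 were tested, and 0 rose and 0 fell in kidney over both cell types (median log2 fold change 0.12). Hsf1, the gene of the regulator, had overlapping levels. It was at 93.7, 62.4, 36.5 and 74.8 in kidney libraries, against 94.2, 28.5, 59.3 and 84.0 in spleen libraries. Bag3, an HSP70 co-chaperone of protein clearance, had the smallest adjusted p of the list. It was at 77.2 and 134 in kidney CD8+ libraries, against 38.4 and 32.5 in spleen CD8+ libraries (log2 fold change 1.50 ± 0.56 SE, limma adjusted p = 0.359). Hspa4l, another HSP110 gene, was at 73.0 and 74.8 in kidney CD8+ libraries, against 34.3 and 31.5 in spleen CD8+ libraries. The HSP90 co-chaperone Fkbp4 averaged 362 ± 75.5 in kidney CD4+ and 207 ± 27.5 in spleen CD4+ cells (SD, n = 2 each). The limma adjusted p was 0.524 for Hspa4l and 0.594 for Fkbp4. Hsp90ab1, the constitutive HSP90, had a log2 fold change over both cell types of 0.11 ± 0.28 SE (limma adjusted p = 0.882).

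Among 24 partners of HSP70 and HSP90, 0 rose and 0 fell over both cell types (median 0.04). Bag1, a nucleotide exchange factor of HSP70, was at 272 and 208 in kidney CD8+ libraries, against 69.4 and 88.8 in spleen CD8+ libraries (log2 fold change 1.59 ± 0.46 SE, limma adjusted p = 0.187). Hspbp1, another exchange factor, differed between cell types in spleen by 1.52 ± 0.39 SE (limma adjusted p = 0.254), at 724 and 681 in CD8+ libraries, against 218 and 273 in CD4+ libraries. Dnajb2, a J-domain gene, averaged 72.6 ± 7.79 in kidney CD8+ and 15.6 ± 4.93 in spleen CD8+ cells. Ppid, a cyclophilin partner of HSP90, averaged 269 ± 226 in kidney CD4+ and 578 ± 108 in spleen CD4+ cells (SD, n = 2 each). For Dnajb2 the limma adjusted p in CD8+ cells was 0.454, and for Ppid in CD4+ cells 0.535. In CD4+ cells Dnajb2 was at 9.16 and 76.0 in kidney libraries, against 62.1 and 42.3 in spleen libraries.

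Of 31 tested genes of endoplasmic reticulum folding and the unfolded protein response, 0 rose and 0 fell over both cell types (median 0.18). Xbp1, a transcription factor of that response, was at 130 and 152 in kidney CD8+ libraries, against 60.6 and 42.0 in spleen CD8+ libraries (log2 fold change 1.46 ± 0.47 SE, limma adjusted p = 0.252). Ddit3, which encodes CHOP, was at 1398 and 1650 in kidney CD8+ libraries, against 716 and 710 in spleen CD8+ libraries. Eif2ak3, the PERK kinase, averaged 41.6 ± 36.8 in kidney CD4+ and 6.07 ± 0.04 in spleen CD4+ cells. Atf6 averaged 61.4 ± 24.4 in kidney CD8+ and 22.9 ± 9.50 in spleen CD8+ cells (SD, n = 2 each). The limma adjusted p was 0.533 for Ddit3, 0.414 for Eif2ak3 and 0.530 for Atf6. In CD4+ cells Atf6 was at 27.5 and 17.7 in kidney libraries, against 38.8 and 26.7 in spleen libraries. Hsp90b1, the HSP90 of the same compartment, was at 1655 to 1992 in kidney libraries and 1269 to 1449 in spleen libraries, with a log2 fold change of 0.40 ± 0.22 SE (limma adjusted p = 0.456).

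Of 15 tested mitochondrial chaperones and proteases, 0 rose and 0 fell (median -0.06). Hspa9, the mitochondrial HSP70, had a log2 fold change of 0.34 ± 0.28 SE (limma adjusted p = 0.624). Htra2, a mitochondrial protease, averaged 33.4 ± 24.4 in spleen CD8+ and 146 ± 48.7 in spleen CD4+ cells, and the protease Yme1l1 116 ± 25.2 in kidney CD8+ and 227 ± 69.4 in spleen CD8+ cells. In CD4+ cells Clpx, an unfoldase, averaged 104 ± 47.6 in kidney and 38.0 ± 12.2 in spleen. There the J-domain gene Dnajc19 averaged 175 ± 101 in kidney and 338 ± 61.6 in spleen (SD, n = 2 each). The limma adjusted p was 0.377 for Htra2, 0.485 for Yme1l1, 0.529 for Clpx and 0.549 for Dnajc19.

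The 14 subunits of the CCT chaperonin, which folds actin and tubulin, and of its partner prefoldin had the lowest median of the lists, at -0.60, again with 0 rises and 0 falls. Cct4 was at 352 and 362 in kidney CD8+ libraries, against 605 and 1305 in spleen CD8+ libraries (log2 fold change -1.31 ± 0.65 SE, limma adjusted p = 0.538). In kidney CD8+ and spleen CD8+ cells Cct3 averaged 1168 ± 319 and 2641 ± 339, Cct2 1169 ± 227 and 2079 ± 294, and Cct6a 409 ± 220 and 874 ± 149 (SD, n = 2 each). Their limma adjusted p was 0.699, 0.703 and 0.561. In CD4+ cells kidney library 1 was above both spleen libraries for Cct2, Cct3, Cct4 and Cct6a, and kidney library 2 below both. Cct3 was at 2508 and 284 there in kidney, against 2036 and 1788 in spleen. The median over both cell types includes these unlike libraries.

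Immediate early genes respond within minutes to many stimuli, tissue handling among them. Of 24 tested, 4 rose and 0 fell over both cell types (median 0.16), against 2.71% of all tested genes called as higher and 0.664% as lower. These were Nr4a3, Nr4a2, Fosl2 and Dusp2, of which the first 3 also rose within CD8+ cells, against 1.21% of all tested genes. Nr4a3, a nuclear receptor, was at 473 and 442 in kidney CD8+ libraries, against 22.2 and 3.82 in spleen CD8+ libraries (log2 fold change 5.44 ± 0.74 SE, limma adjusted p = 0.0130). Nr4a2 averaged 418 ± 9.56 in kidney CD8+ and 38.7 ± 3.32 in spleen CD8+ cells, and Fosl2, an AP-1 subunit, 304 ± 28.1 in kidney CD8+ and 29.5 ± 1.17 in spleen CD8+ cells (SD, n = 2 each; limma adjusted p = 0.0136 and 0.0189). Each of these 3 calls in CD8+ cells was lost in 4 of 17 alternatives, on leaving out either kidney CD8+ library among others (adjusted p up to 0.206). Dusp2, a phosphatase of MAP kinases, had a log2 fold change of 1.81 ± 0.28 SE over both cell types (limma adjusted p = 0.0104). Fos and Jun, the founding AP-1 genes, had log2 fold changes of -0.72 ± 0.50 and -0.20 ± 0.36 SE (limma adjusted p = 0.565 and 0.839). Fos was at 5421, 1021, 3281 and 4136 in kidney libraries, against 4675, 4532, 3600 and 7294 in spleen libraries.

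**Figure D3:**
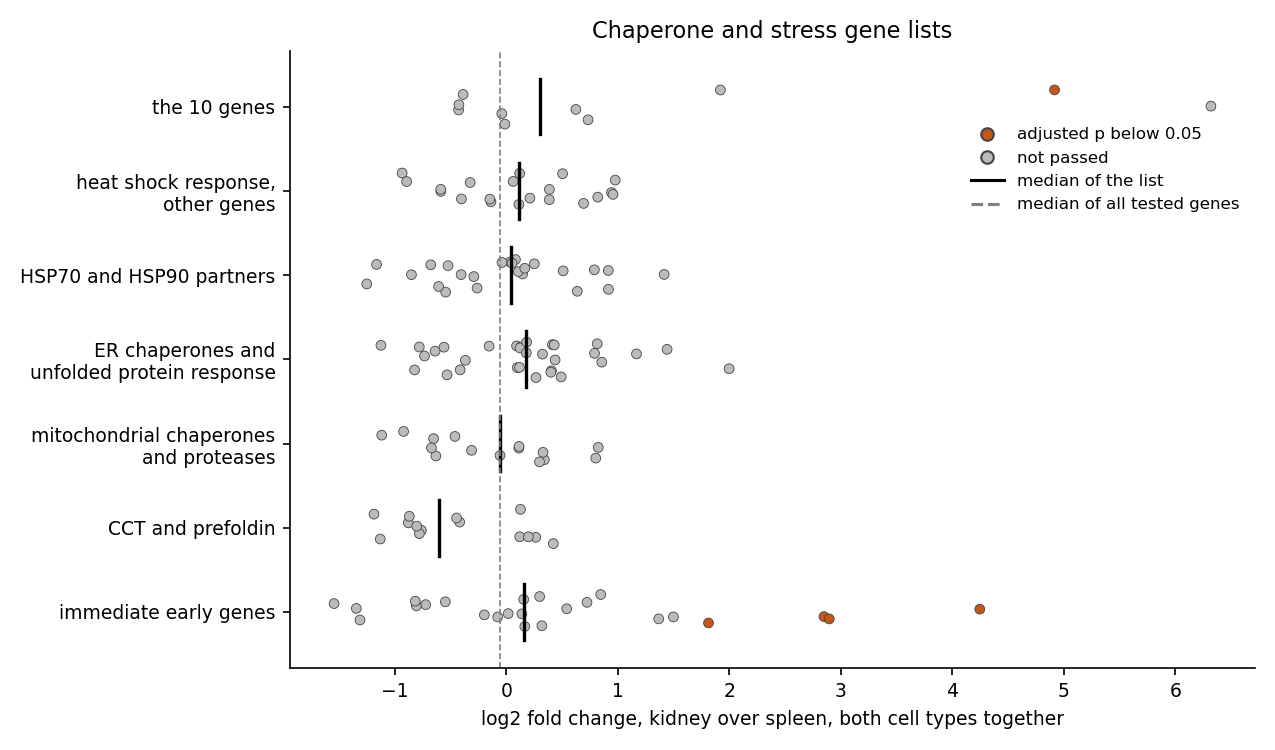
Log2 fold change of kidney over spleen, both cell types together, for each tested gene of the 10 described and of 6 other lists; orange points passed at a limma adjusted p below 0.05, black bars are list medians and the dashed line is the median of all tested genes at -0.06. Hspa1b and 4 immediate early genes passed, and Hspa1a has the highest value without passing.

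RNA of some other cells moved with Hspa1a and Hspa1b, and that of others did not. In CD4+ and CD8+ cells of kidney, the library with the higher summed Hspa1a and Hspa1b level also had more tubule RNA. The proximal tubule markers summed to 11720 and 23814 in kidney CD4+ libraries 1 and 2 and to 8095 and 30806 in kidney CD8+ libraries 1 and 2. The 6 measured of 7 distal nephron markers summed to 1016 and 9672 and to 1745 and 4661 in the same libraries, and to 0 to 7.41 in spleen libraries. Within spleen the tubule sums rested on few genes, since 12 to 14 of the 15 proximal tubule markers were at 0 in each library. The sum was 543 and 411 in spleen CD4+ libraries 1 and 2, unlike the HSP70 genes. In spleen CD8+ libraries 1 and 2 it was 87.5 and 139, higher in library 2 as were the HSP70 genes. Miox, Fbp1, Lrp2, Slc34a1 and Kap among these markers were at 0 in every spleen library. Neutrophil markers followed the HSP70 genes within spleen. They summed to 5803 and 9429 in spleen CD4+ and 3660 and 6545 in spleen CD8+ libraries, while Ngp and S100a9 were at 0 in every kidney library. In kidney the macrophage sum was lower in library 2, at 6792 and 6513 in CD4+ and 2353 and 1790 in CD8+ libraries 1 and 2. Dendritic and plasma cell sums were also lower in library 2 of each kidney group. In spleen, erythroid and B cell sums were lower in library 2 of each group, and macrophage and plasma cell sums were higher. The part of other cells in the organ difference was not tested. Fewer cells of a type and less RNA per cell cannot be told apart in such samples.

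The 8 macrophage markers summed to 1790 to 6792 in kidney libraries and 841 to 2254 in spleen libraries, and 5 measured of 6 dendritic cell markers to 3597 to 26395 in kidney and 2295 to 5664 in spleen. Erythroid markers, 6 in number, summed to 608 to 1781 in kidney and 8179 to 15091 in spleen. The 4 measured of 6 B cell markers summed to 182 to 247 in kidney and 368 to 978 in spleen, and the 7 plasma cell markers to 633 to 1477 in kidney and 991 to 2482 in spleen. Of the endothelial markers only Pecam1 was in the table, at 0 to 56.2 in kidney and 8.75 to 49.2 in spleen libraries. The 6 measured of 9 T cell markers summed to 90792 to 114640 in kidney libraries and 78571 to 92872 in spleen libraries.

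**Figure D4:**
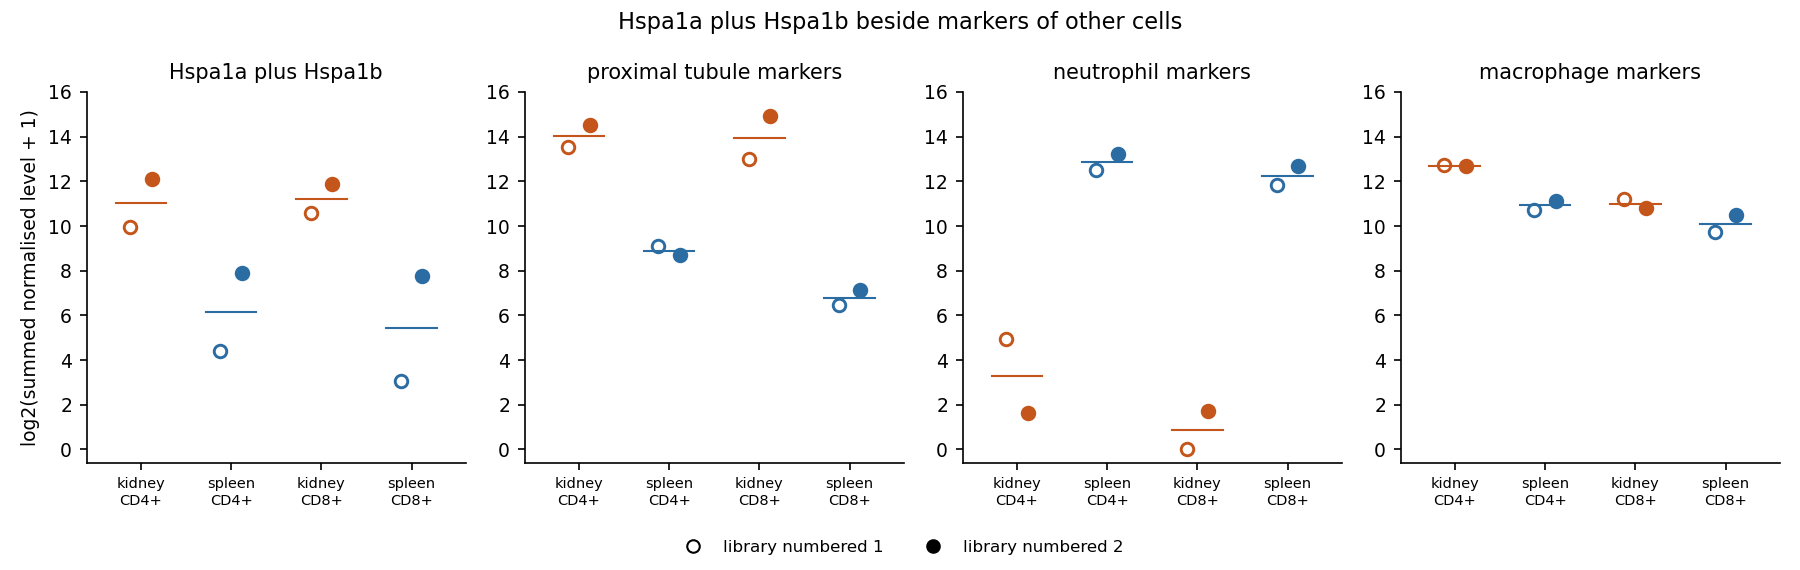
Summed level of Hspa1a and Hspa1b and of markers of proximal tubule, neutrophils and macrophages as log2(summed normalised level + 1) in each library, with open circles for library 1, filled circles for library 2 and lines for group means. Within kidney the tubule sum and within spleen the neutrophil sum were higher in CD4+ and CD8+ library 2, as was the Hspa1a and Hspa1b sum. The macrophage sum was lower in library 2 of each kidney group and higher in library 2 of each spleen group.

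Over the 8 libraries, the log2 levels of Hspa1a and Hspa1b correlated at Pearson r = 0.99, Hspa1b and Dnajb1 at 0.93 and Hspa1b and Hsp90aa1 at 0.88, while Hspa8 went with Dnaja1 (0.94) and Hspa5 with Hspa8 (0.78). These values describe 8 libraries that share an organ or a cell type. Hspa5 and Hspe1 ran against each other at -0.88. Hspa8, Dnaja1, Hspa5 and Hspe1 each had their highest and lowest levels in the unlike kidney CD4+ libraries. The genes most like the mean profile of Hspa1a, Hspa1b, Hsph1, Dnajb1, Dnaja1 and Hsp90aa1, among 4520 genes with a mean level of at least 100, were Lilr4b, Aarsd1, Krt83, Tnf and Hdlbp (r = 0.970 to 0.924). Lilr4b was at 272 to 483 in kidney libraries and 132 to 208 in spleen libraries. Krt83 was at 58.5 to 880 in kidney libraries and 0 to 4.31 in spleen libraries. Most like Hspa5 were Bud13, Tceb3, Vamp3, Uimc1 and Tmx1 (r = 0.990 to 0.983), and most like the mean of Hspd1 and Hspe1 were Npm1, Slc25a4, Nr2c2ap, Mrto4 and Scp2 (r = 0.959 to 0.928). These genes were picked for the likeness, over 8 libraries, so the values carry no test. Within the averaged profiles, Hspd1 and Hspe1 correlated at -0.285 with each other. Dnaja1 correlated at -0.33 to 0.11 with the other genes of its mean. Likeness to a mean therefore need not hold for each gene in it.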

How the data were processed

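The authors deposited 1 table of normalised counts (signal) per gene and library. Per the labels' protocols, RNA of sorted cells went into an ultra-low-input library kit. Reads were aligned to mouse mm9, and the submitters' processing notes name STAR 2.5.3 and TopHat2 2.1.0. How reads were counted and scaled is not given in the sources used here. Each deposited signal value was a whole multiple of 1 step per library (100% of values, tolerance 1e-06), so whole reads were recovered for the count tests.

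The test was limma 3.58.1 (R 4.3.3) on log2(level + 1), with means of 4 groups over 8 libraries and an intensity trend, 2-sided. Genes entered if 2 or more libraries reached a level of 10. Benjamini-Hochberg adjustment ran over all tested genes within each of 6 comparisons, with calls at an adjusted p below 0.05. Adding 1 shrinks the ratio of 2 low levels, but spleen libraries near 0 weigh heavily in a mean of log2 levels. Over both cell types Hspa1a had 6.32 on this scale, against 4.73 with edgeR and 4.75 with DESeq2. Hspa1b had 4.92, against 4.36 and 4.39. Alternatives were edgeR 4.0.16 and DESeq2 1.42.0 on the recovered reads, 10 added in place of 1, no filter, TMM scaling, the compared libraries alone, library weights, a replicate block and leaving out each library. Exon lengths and positions come from GENCODE M1 (mm9). The tests were first run on simulated data. Marker sums and correlations are descriptions without a test.

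The 10 genes and the lists were chosen with earlier results of these data known. Named list genes are up to 4 per list with the smallest adjusted p in a contrast of 2 groups, plus Hsf1, Hsp90ab1, Hsp90b1, Hspa9, Fos and Jun; of the markers, examples at 0 and sums are given. One gene that this rule names is not reported here.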

Additional observations from a re-analysis of the deposited data

How the results depend on the processing

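Over 62 results, 895 of 1005 alternative values kept their direction and side of the threshold, 19 lost and 57 gained a call and 34 changed sign. The limit is 2 libraries a group, with the unlike kidney CD4+ pair in the shared spread; causes of the changes below were not tested.

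Genes called in kidney against spleen in CD4+ cells numbered 104, against 66 with edgeR, 352 with DESeq2, 31 with library weights and 0 with the compared libraries alone. In CD8+ cells they numbered 168, against 99 with edgeR, 492 with DESeq2, 577 with weights and 745 without both kidney CD4+ libraries. Over both cell types they numbered 366, against 789 with DESeq2. DESeq2 called 12 genes for the difference between the organ differences, against 0. Between cell types in kidney 22 were called, against 216 with DESeq2, 49 with 10 added, 12 with weights and 0 with the compared libraries alone. In spleen 39 were called, against 234 with DESeq2, 83 with 10 added, 60 with TMM scaling, 666 with weights, 142 with the compared libraries alone and 325 without both kidney CD4+ libraries.

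Leaving out 1 library at a time gave 15 to 2331 calls in CD4+ cells, 21 to 737 in CD8+ cells, 148 to 2749 over both, 0 to 745 for the difference between them, 3 to 1351 between cell types in kidney and 2 to 323 in spleen. The highest came without kidney CD4+ library 1, or library 2 between the kidney cell types. Of the 10 heat shock and chaperone genes it called 0 to 7 in CD4+ cells (0.138% to 21.5% of all tested genes), 0 to 1 in CD8+ cells (0.194% to 6.8%), 0 to 10 over both (1.36% to 25.3%), 0 to 2 for the difference (0% to 6.87%) and 0 to 3 in kidney (0.0277% to 12.5%). Over both cell types 1 of the 10 was called (3.37% of all tested genes), against 0 with edgeR (3.1%) or weights (2.83%), 2 with DESeq2 (7.28%) or TMM scaling (3.49%) and 3 with 10 added (3.22%). In CD8+ cells 1 was called without both kidney CD4+ libraries (6.87%).

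Over all tested genes, differences between replicate numbers correlated at -0.155 to 0.0559 between groups. Such values show little shared difference across genes but cannot tell whether libraries of the same number share a mouse or a preparation. Hspa1a, Hspa1b, Dnajb1 and Hsp90aa1 were higher in library 2 of every group. With the replicate block 90 genes were called in CD4+ cells, 137 in CD8+ cells, 289 over both, 18 in kidney and 19 in spleen, and 1, 2 and 3 of the 10 genes in the first 3 comparisons, against 0.83%, 1.26% and 2.66% of all tested genes.

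Signs changed only for values that had not been called. Over both cell types the log2 fold change was 0.027 with edgeR and 0.045 with DESeq2 for Dnaja1, 0.13 and 0.18 for Hspe1, and -0.023 with edgeR for Hsf1. In CD4+ cells it was 0.19 and 0.18 for Hspa8 and 0.12 and 0.12 for Hspa5. Leaving out 1 library gave, in CD4+ cells, -1.13 to 0.54 for Dnaja1, -2.30 to 1.16 for Hspa8, -1.70 to 1.03 for Hspa5, -0.42 to 0.51 for Hspd1 and -0.88 to 0.98 for Hspe1. In CD8+ cells it gave -0.55 to 0.14 for Hspa8 and -0.19 to 0.043 for Hspe1. Over both it gave -0.46 to 0.38 for Dnaja1, -1.25 to 0.48 for Hspa8, -1.11 to 0.25 for Hspa5, -0.48 to 0.45 for Hspe1, -0.36 to 0.49 for Hsf1, -0.049 to 0.28 for Hsp90ab1 and -0.55 to 0.16 for Jun.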

Other observations

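The 2 libraries of each group differed in Hspa1a and Hspa1b in the same direction in all 4 groups, a pattern noticed after the values were seen. The log2 level of library 2 minus that of library 1 for Hspa1a was 2.07 and 1.43 in the kidney groups (CD4+, then CD8+), and 5.21 and 6.31 in the spleen groups. For Hspa1b it was 2.25 and 1.18 in the kidney groups and 2.85 and 4.04 in the spleen groups, in the same order. Dnajb1 and Hsp90aa1 were also higher in library 2 of every group, Dnajb1 by 0.06 to 1.75 and Hsp90aa1 by 0.02 to 0.67. Of all 10845 tested genes 4.49% were higher in library 2 of all 4 groups. By more than 1 log2 unit in each group, 21 genes (0.194%) were higher, the near-identical Hspa1a and Hspa1b among them. Fcgr2b, Cd63 and Kif11 were others of the 21, named after their values were seen. The labels do not say what the library numbers stand for.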
